A study of Homo sapiens with 8 samples.

Results

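Chemokine genes were described on promoter arrays that compared DNA from a SMAD3 immunoprecipitation (SMAD3 IP) with DNA from a control immunoprecipitation (mock IP). The members were the CC and CXC chemokine genes, with IL8, CX3CL1, XCL1 and XCL2, and were chosen by gene symbol in the probe annotation of the arrays. This gave 40 genes of 17402 annotated genes and 1013 probes of 474411. The rule used no measured value, although it was written with earlier results of these data known. A total of 3 probes were annotated to both CCL3 and CCL4 and were counted for each. The cells were A549, an established human lung adenocarcinoma line used as a model of alveolar type II epithelium, and were either unstimulated (basal level) or stimulated with TGFβ1 at 2 ng/ml. All cells had been serum-starved before stimulation, according to the methods of the study. The labels give a stimulation of up to 2 h, while the study also describes a shorter time, so the exact time is not settled here. There were 2 biological replicates per condition, and each was hybridised to 2 slides that carry different probes, which gave 8 arrays. The labels call these biological replicates, whereas the study describes 3 array replicates. The p-values below rest on the 2 replicates per condition analysed here, with a spread estimated largely across genes. Every array carried the SMAD3 IP in Cy5 and the mock IP in Cy3, so a dye effect was not separated from enrichment. The mock IP is an anti-FLAG IP in the sample names and a control IgG in the protocol. Because the arrays hold immunoprecipitated DNA and no RNA, the cell line could not be checked against expressed markers.

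Chemokines are small secreted proteins that direct the movement of leukocytes through G protein-coupled receptors. The CC and CXC families are named after the spacing of their first cysteines, and most of their genes lie in clusters on chromosomes 4 and 17. ELR-positive CXC chemokines such as IL8 (CXCL8) attract neutrophils, the interferon-induced CXC chemokines attract activated T cells, and the CC chemokines act on monocytes, eosinophils and lymphocytes. Airway and alveolar epithelium secretes many of them in response to injury and cytokines. TGFβ1 acts through receptor kinases that phosphorylate SMAD2 and SMAD3, which then bind DNA together with SMAD4 at short motifs that contain AGAC or its complement GTCT.

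For many chemokine probes the arrays gave no usable ratio. A probe was counted as measured when it was well above background in both channels on all 4 arrays of its slide and was not marked as an outlier by the scanner software. This held for 268 of 1011 member probes without an outlier mark (26.5%), compared with 34% of all probes. A further 298 member probes (29.5%, compared with 28.3% of all probes) were well above background in neither channel on any array. IL8, the best known neutrophil attractant of airway epithelium, had 37 probes, of which 0 were measured and 28 were dark in this sense. CXCL10, an interferon-induced attractant of T cells, had 31 probes and CCL20, an attractant of CCR6-bearing dendritic cells and lymphocytes, had 17, and in both genes 0 probes were measured. The highest number of measured probes was 27 of 50 in CCL17, followed by 22 of 36 in CXCL12. A promoter value needed at least 2 measured probes from 2000 bp before to 800 bp after the annotated start, with positions before the start written as negative. It was obtained for 28 of the 40 genes, whereas CCL3, CXCL11, CXCL13 and CXCL3 had 1 measured probe there and CCL18, CCL20, CCL4, CXCL10, CXCL9, IL8, XCL1 and XCL2 had none. Of these 28 genes, 11 had at least 4 measured probes in the window, so most values rest on 2 or 3 probes.

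**Figure D1:**
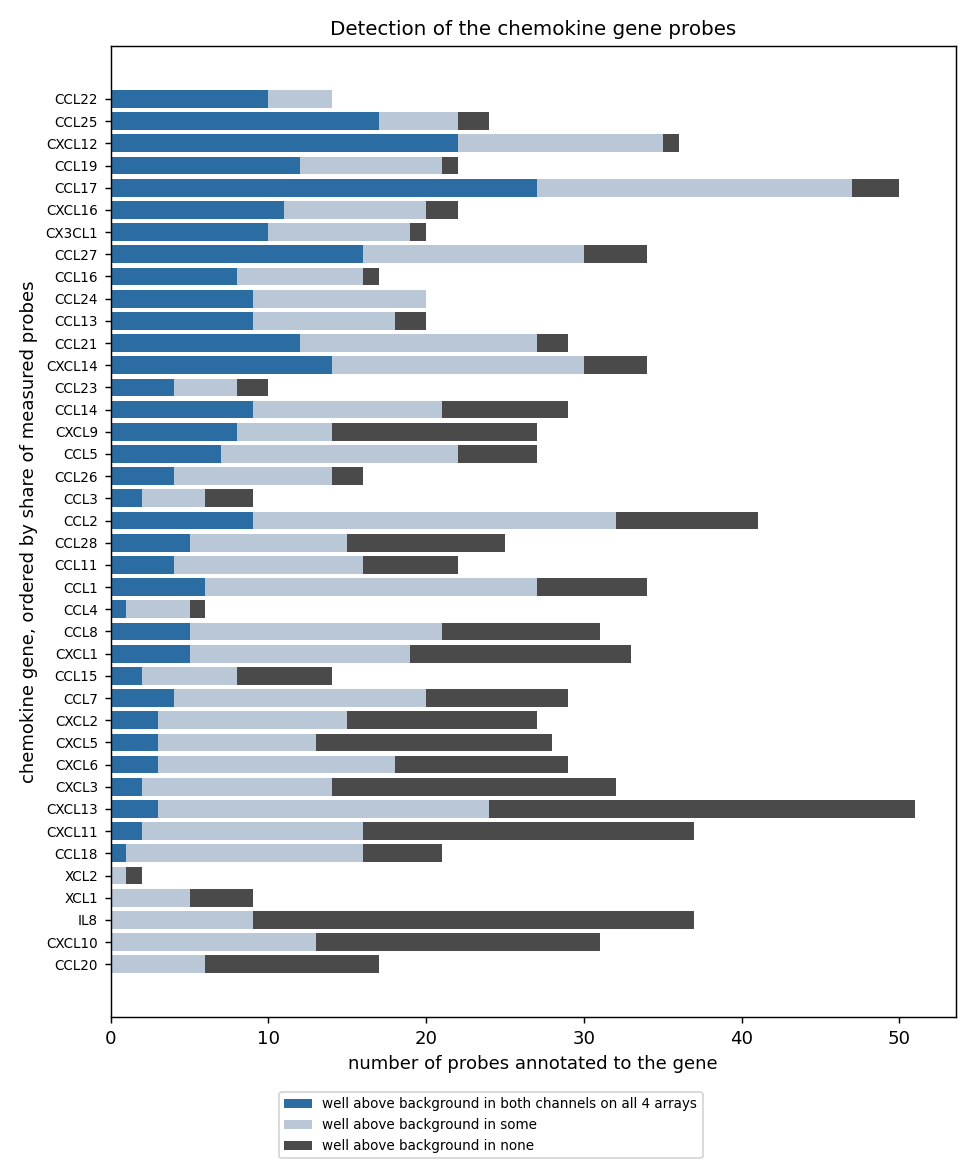
Number of probes annotated to each of the 40 chemokine genes (x axis), divided into probes well above background in both channels on all 4 arrays of their slide, in some channel or array, and in none, with genes ordered by the share of measured probes. CCL17 holds 27 measured probes of 50, while IL8, CXCL10 and CCL20 hold 0.

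Promoter sequences are shown for 6 genes on which the results turn. They are CXCL6 and CCL24 as the largest rises of the ratio, CCL1 as the largest fall, CXCL5 as a rising neighbour of CXCL6 in the family, CXCL12 as the gene with the highest basal ratio, and IL8 as the well known family member without a measured probe. The sequences are from RefSeq on GRCh38.p14, run 5′ to 3′ on the strand of the gene from 250 bases before the start to 50 bases after it, and have each AGAC or GTCT in capitals.
CXCL6, chr4:73836428-73836727, plus strand: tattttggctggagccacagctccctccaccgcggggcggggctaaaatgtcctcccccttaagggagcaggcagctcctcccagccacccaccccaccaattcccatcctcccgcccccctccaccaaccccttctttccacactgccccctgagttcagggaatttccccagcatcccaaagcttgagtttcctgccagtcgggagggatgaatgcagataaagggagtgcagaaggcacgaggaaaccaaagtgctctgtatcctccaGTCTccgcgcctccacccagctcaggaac
CXCL5, chr4:73998628-73998927, minus strand: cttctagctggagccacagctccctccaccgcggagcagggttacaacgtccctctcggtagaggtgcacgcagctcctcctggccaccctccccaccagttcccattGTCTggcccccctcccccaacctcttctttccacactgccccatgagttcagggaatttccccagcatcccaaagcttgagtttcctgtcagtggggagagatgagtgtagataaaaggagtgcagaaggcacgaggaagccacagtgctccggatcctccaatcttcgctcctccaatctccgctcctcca
IL8, chr4:73740319-73740618, plus strand: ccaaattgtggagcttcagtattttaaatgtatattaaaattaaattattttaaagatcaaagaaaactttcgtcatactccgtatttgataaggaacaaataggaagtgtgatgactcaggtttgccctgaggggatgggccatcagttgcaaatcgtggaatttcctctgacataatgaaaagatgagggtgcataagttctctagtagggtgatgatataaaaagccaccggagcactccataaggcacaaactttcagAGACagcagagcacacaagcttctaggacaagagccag
CCL24, chr7:75823323-75823622, minus strand: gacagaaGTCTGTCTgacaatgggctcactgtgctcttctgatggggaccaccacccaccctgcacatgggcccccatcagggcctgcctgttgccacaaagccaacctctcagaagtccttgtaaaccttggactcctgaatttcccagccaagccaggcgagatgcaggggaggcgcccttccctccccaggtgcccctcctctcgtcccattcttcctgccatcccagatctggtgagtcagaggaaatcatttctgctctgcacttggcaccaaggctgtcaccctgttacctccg
CCL1, chr17:34363184-34363483, minus strand: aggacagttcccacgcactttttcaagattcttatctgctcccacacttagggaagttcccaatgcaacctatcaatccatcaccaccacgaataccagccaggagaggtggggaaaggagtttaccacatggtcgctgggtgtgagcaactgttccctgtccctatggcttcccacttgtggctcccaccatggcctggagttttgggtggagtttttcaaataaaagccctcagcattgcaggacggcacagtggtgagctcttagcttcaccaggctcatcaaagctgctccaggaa
CXCL12, chr10:44385048-44385347, minus strand: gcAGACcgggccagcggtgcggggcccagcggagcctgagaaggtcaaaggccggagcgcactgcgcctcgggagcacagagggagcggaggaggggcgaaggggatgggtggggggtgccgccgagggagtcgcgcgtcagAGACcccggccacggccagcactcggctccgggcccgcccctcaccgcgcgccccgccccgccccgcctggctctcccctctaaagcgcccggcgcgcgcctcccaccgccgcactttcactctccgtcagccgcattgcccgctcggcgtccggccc
CXCL6, CXCL5 and IL8 held 1 AGAC or GTCT each, CCL24 and CXCL12 held 2, and CCL1 held 0.

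Promoters were matched for 29 of the 40 genes, and motif counts describe these 29 beside all 27305 promoters of the same length. AGAC or GTCT, which are each other's complement and so cover both strands, occurred in 26 of the 29 (89.7%) and in 84.1% of all promoters. The longer CAGAC or GTCTG, which contains the shorter motif, occurred in 15 (51.7%, compared with 45.0%), and the palindrome GTCTAGAC in 0 (all promoters, 0.2%). The AP-1 motif TGANTCA, which reads alike on both strands, occurred in 6 (20.7%, compared with 7.8%), including IL8 and CCL24. GGGNNNTTC or GAANNNCCC, the start of an NF-kB site on either strand, occurred in 17 (58.6%, compared with 15.3%). CXCL1, CXCL2 and CXCL3 held 3 of these each, CXCL5, CXCL6 and CCL1 held 2 each, and IL8 and CXCL12 held 0. The pattern asks for GGG, or CCC on the other strand, so letters such as GGAATTTCC, which the IL8 sequence above holds, are not counted. A count of 0 therefore does not show that a promoter lacks an NF-kB site. These are matches of letters in a window of 300 bases and are given as a description.

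The question of the array comparison was where TGFβ1 stimulation alters SMAD3 binding. The value used for a gene is the mean log2 ratio of SMAD3 over mock IP over its measured probes in the window, with the median of each array set to 0. After TGFβ1 stimulation the ratio rose at 7 of the 28 tested chemokine genes (CXCL6, CCL24, CCL23, CXCL5, CCL15, CCL26 and CCL28) and fell at 12 (CCL1, CCL16, CCL17, CCL7, CCL2, CXCL2, CXCL1, CCL27, CCL5, CCL11, CXCL14 and CXCL16), at an adjusted p under 0.05 in limma. Among all 13986 tested genes 21.3% rose and 34% fell, so the shares in the family, 25% and 42.9%, were not far from those of the array as a whole. The median change was -0.35 for the chemokine genes and -0.18 for all genes, on the log2 scale. The changes of single genes were large, from -4.47 at CCL1 to 4.79 at CXCL6. Background correction decided how many passed: with the normexp method in place of the processed signals of the scanner software, 3 rose and 2 fell. The genes called under it were CXCL6 (3.70), CCL24 (2.11) and CXCL5 (0.94), which rose, and CCL1 (-2.54) and CCL7 (-1.67), which fell. The median change was then -0.03 for the chemokine genes and 0.02 for all genes. The share of all genes called under normexp is not given here, so the drop is not a result about the family. No called gene changed sign under that method, under loess or without centring, whereas some genes with changes near 0, such as CCL21, did. CXCL14 was called under none of the 3, and CCL8 was called as a rise under loess (0.57) and without centring (0.58).

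The replicates of one condition resembled each other closely and the conditions did not. Over the 268 measured chemokine probes the correlation of the log2 ratio was 0.932 between the unstimulated replicates and 0.956 between the stimulated ones, while it lay between 0.298 and 0.309 between conditions. Over all 160926 measured probes the values were 0.942, 0.954 and 0.311 to 0.336. These correlations run across probes, which are not independent replicates, and the probes share arrays, dye and amplification. With 2 replicates the p-values rest on a spread estimated largely across genes, and stimulation cannot be told apart from any other difference between the preparations of the conditions.

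**Figure D2:**
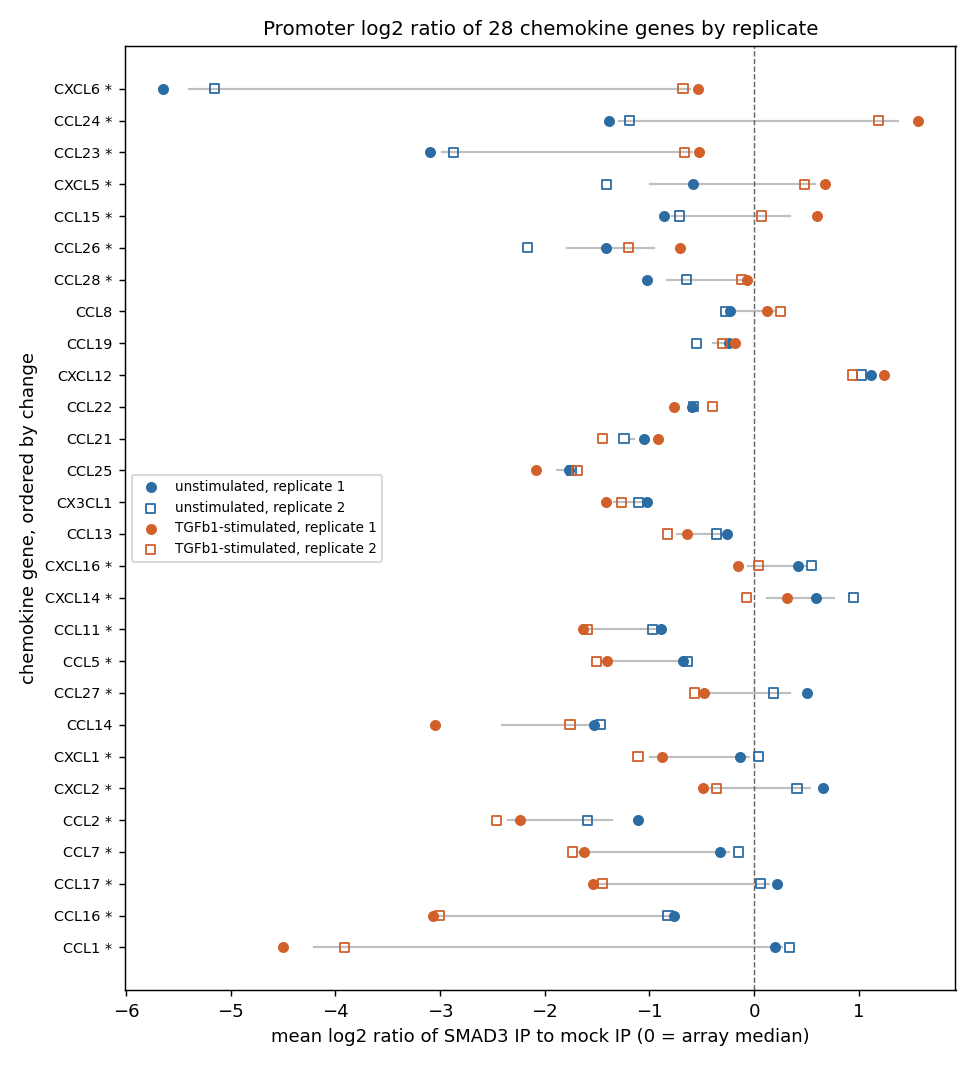
Mean log2 ratio of SMAD3 over mock IP (x axis, 0 is the array median) for the 28 tested chemokine genes, with 1 point per replicate, blue for unstimulated and orange for stimulated cells, a grey line between the condition means, and an asterisk for an adjusted p under 0.05. CXCL6 moves from -5.40 to -0.61 and CCL1 from 0.27 to -4.21, while CXCL12 stays above 0 in all 4 replicates.

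Among the ELR-positive CXC chemokines, which attract neutrophils through CXCR1 and CXCR2, 4 of 6 were tested, 2 rose and 2 fell. Over all tested genes 21.3% rose and 34% fell. The counts of this small group and of the groups below are to be read beside these shares and are not traits of a group. CXCL6 had the largest rise of the family. Its log2 ratio was -5.65 and -5.16 in the unstimulated replicates and -0.54 and -0.68 in the stimulated ones, so that the stimulated promoter remained below the array median. The change was 4.79 ± 0.21 (SE, 2 replicates per condition, adjusted p = 4.9e-07). All 3 measured probes, at -270, 43 and 182 bp from the start, moved together, with changes of 5.15, 5.22 and 4.02. In CXCL5 the ratio was -0.58 and -1.41 before and 0.68 and 0.48 after stimulation, a change of 1.58 ± 0.27 (adjusted p = 0.00103). Its 3 probes disagreed: those at -229 and 97 bp rose by 2.17 and 3.07 and the one at -898 bp had a change of -0.51 that did not pass (adjusted p = 0.155), so the median of the probes turned the sign of the gene to -0.51. With dim probes included the change of CXCL5 was 0.34 and was not called.

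CXCL1 and CXCL2, close paralogs of CXCL3 in the chromosome 4 cluster, went down. CXCL2 had log2 ratios of 0.66 and 0.41 at the basal level and -0.49 and -0.36 after stimulation, a change of -0.96 ± 0.19 (adjusted p = 0.00237). Its 2 probes disagreed between the unstimulated replicates in opposite directions, with 1.46 and -0.41 at -230 bp and -0.14 and 1.23 at -111 bp. The basal values of the gene are means over these, so its SE does not show the disagreement. Neither of the 2 probes passed on its own, and with dim probes included the change of CXCL2 was 0.83. CXCL1 had -0.13 and 0.04 before and -0.88 and -1.11 after stimulation, a change of -0.95 ± 0.19 (adjusted p = 0.00256). Of its 3 probes the one at -1343 bp fell by 3.34, while the probe at 54 bp rose by 0.84 and held a ratio above the array median in every replicate (1.35, 1.16, 2.23 and 1.96). The median of its probes was -0.34 and was not called. Under the normexp method neither CXCL1 (-0.31) nor CXCL2 (-0.07) was called. In CXCL3 the single measured probe of the window, at -1328 bp, had 0.05 and -0.22 before and 0.99 and 0.60 after stimulation and rose by 0.88 (adjusted p = 0.0424 across all measured probes).

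The 3 eotaxins, CCL11, CCL24 and CCL26, attract eosinophils through CCR3. All were tested, and 2 rose and 1 fell. CCL24 (eotaxin-2) was the gene whose ratio crossed the array median upward with the widest margin. Its log2 ratio was -1.39 and -1.19 at the basal level and 1.56 and 1.19 after stimulation, a change of 2.66 ± 0.20 (adjusted p = 8.69e-06), and the stimulated mean of 1.38 was the highest of the 28 genes. A single probe at -119 bp carried this: it had -3.40 and -2.74 before and 5.75 and 5.46 after stimulation, a change of 8.67 ± 0.32 (adjusted p = 0.000267), the largest rise of any chemokine probe. The next probes of the window, at 280 and 403 bp, had changes of 1.07 and -1.75, both called. Upstream of the window the direction was opposite, since the probe at -2037 bp went from 3.97 and 3.64 to -1.89 and -2.45, a change of -5.97 that was the largest fall of any chemokine probe. With every measured probe of the gene in place of the window the change of CCL24 was -0.27, and it was 0.62 with dim probes included.

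CCL26 (eotaxin-3), which is induced in epithelium by IL4 and IL13, had log2 ratios of -1.41 and -2.16 before and -0.70 and -1.20 after stimulation, a change of 0.83 ± 0.28 (adjusted p = 0.0295). It lost its call without unstimulated replicate 2 (0.46), without stimulated replicate 1 (0.59) and without stimulated replicate 2 (1.08), and also under normexp (0.41), with every probe of the gene (0.58) and with the median of the probes (0.73). CCL11 (eotaxin) had -0.89 and -0.97 before and -1.64 and -1.60 after stimulation, a change of -0.69 ± 0.18 (adjusted p = 0.00993), lost its call without unstimulated replicate 1 (-0.64) and under normexp (-0.08), and turned to 1.24 when dim probes were included. Both conditions of CCL11 and CCL26 lay below the array median.

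CCL14, CCL15, CCL16, CCL18 and CCL23 were grouped here as further CC chemokines of chromosome 17, with no shared tissue implied. Of these 5 genes 4 were tested, of which 2 rose and 1 fell. CCL23, an attractant of monocytes and resting T cells, had log2 ratios of -3.09 and -2.87 at the basal level and -0.53 and -0.67 after stimulation, a change of 2.39 ± 0.19 (adjusted p = 1.04e-05). Its probes at -1397 and -500 bp rose by 5.78 and 5.57, whereas the probe at 124 bp fell by 2.42. CCL15 had -0.86 and -0.71 before and 0.60 and 0.07 after stimulation, a change of 1.13 ± 0.22 (adjusted p = 0.00226), from a probe at 676 bp that rose by 3.50 and a probe at 533 bp that fell by 1.25. Probes of one promoter thus differed in direction in both genes. Neither was called under normexp (CCL23 1.66, CCL15 0.93), and CCL15 was 0.07 with probes above background in at least 1 channel.

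CCL16, a chemokine of hepatocytes, had the largest fall after CCL1, although under normexp its change was -0.92 and was not called. Its log2 ratio was -0.76 and -0.82 before and -3.07 and -3.00 after stimulation, a change of -2.24 ± 0.18 (adjusted p = 1.11e-05). Its probes at -362, -68 and 423 bp fell, the strongest at -68 bp with a change of -4.79, as did the probe at 818 bp just past the window, while the probes at -1211 and -757 bp had -0.21 and -0.56 without passing. CCL14, which the study lists among genes with SMAD3 binding at the basal level, had -1.53 and -1.47 before and -3.05 and -1.76 after stimulation, so its promoter mean lay below the array median in every replicate. The listing in the study rests on a fitted local peak, a measure unlike this mean over the window, so the values do not test it. The change of -0.91 ± 0.35 did not pass (adjusted p = 0.0544), and it did pass without unstimulated replicate 1 (-0.94), without unstimulated replicate 2 (-0.88) and without stimulated replicate 2 (-1.55). With dim probes included it turned to 0.88. Within CCL14 the probe at 63 bp rose by 2.07 and the probe at 572 bp fell by 3.85, and past the window the probe at 1195 bp rose by 1.91.

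CCL2, CCL7, CCL8 and CCL13 were grouped here as monocyte-attracting CC chemokines, although other members, such as CCL23, also attract monocytes. All 4 were tested, 0 rose and 2 fell. CCL2 (MCP-1), the main ligand of CCR2 and a product of injured alveolar epithelium, had log2 ratios of -1.11 and -1.59 at the basal level and -2.23 and -2.46 after stimulation, a change of -0.99 ± 0.22 (adjusted p = 0.00412). The call was lost under normexp (-0.24), with probes above background in at least 1 channel (-0.30), with every probe of the gene (-0.17) and without stimulated replicate 2 (-0.88). Its 2 measured probes moved in opposite directions, as the one at -1226 bp fell by 3.82 and the one at 60 bp rose by 1.83. CCL7 (MCP-3) had -0.33 and -0.15 before and -1.62 and -1.73 after stimulation, a change of -1.44 ± 0.18 (adjusted p = 0.000189), which came from the probe at 463 bp, while with dim probes included it was 1.42 and with every measured probe of the gene -0.10. CCL8 (0.44 ± 0.18, adjusted p = 0.0638) and CCL13 (-0.43 ± 0.18, adjusted p = 0.0748) did not pass. CCL13 was called as a fall in the narrower window of 500 bp before to 250 bp after the start (-1.49), with every probe of the gene (-1.45) and with the median of the probes (-0.68).

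Of CCL3, CCL4 and CCL5, grouped here as macrophage inflammatory CC chemokines, CCL5 (RANTES) was the single gene tested. It had log2 ratios of -0.68 and -0.64 before and -1.40 and -1.51 after stimulation, a change of -0.80 ± 0.18 (adjusted p = 0.00471). The probe at 236 bp fell by 2.66, that at 126 bp fell by 0.81 and that at -504 bp rose by 1.08. The change of CCL5 was not called under normexp (-0.54) and was 0.19 with every probe of the gene. CCL3 had 1 measured probe in its window, at 179 bp, with 0.81, 1.64, -0.74 and 0.47 in the replicates in the same order, which did not pass (adjusted p = 0.0852), and CCL4 had none. None of the 3 interferon-induced genes CXCL9, CXCL10 and CXCL11 could be tested.

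CCL1, CCL17, CCL22, CCL25, CCL27 and CCL28 were grouped here as chemokines of lymphocyte and skin homing. All 6 were tested, 1 rose and 3 fell. CCL1, a ligand of CCR8 on T cells, had the largest fall of the family. Its log2 ratio was 0.20 and 0.34 at the basal level and -4.50 and -3.91 after stimulation, a change of -4.47 ± 0.23 (adjusted p = 1.04e-06). Both probes of the window, at 149 and 722 bp, fell, with changes of -4.78 and -4.16. The 3 measured probes upstream, between -4415 and -2794 bp, rose by 2.31 to 4.46, so that the value over all measured probes of the gene was -0.12 and did not pass.

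CCL17 (TARC), a ligand of CCR4, had log2 ratios of 0.22 and 0.06 before and -1.53 and -1.45 after stimulation, a change of -1.63 ± 0.18 (adjusted p = 8.53e-05). The probe at 284 bp fell by 3.53 and its neighbours at 393 and 707 bp had -0.72 and -0.65 without passing. CCL17 was not called under normexp (-0.60), and over all of its 27 measured probes the change was 0.44. CCL27, made by keratinocytes for CCR10-bearing T cells, had 0.50 and 0.18 before and -0.48 and -0.57 after stimulation, a change of -0.87 ± 0.19 (adjusted p = 0.00467). It was not called under normexp (-0.17), with dim probes included (-0.08), with probes above background in at least 1 channel (-0.05) or with the median of the probes (-0.40), and was -2.07 in the narrower window. CCL28, a mucosal epithelial ligand of CCR10, had -1.03 and -0.65 before and -0.07 and -0.12 after stimulation, a change of 0.74 ± 0.20 (adjusted p = 0.0116) that was not called without unstimulated replicate 1 (0.55), stimulated replicate 1 (0.71) or stimulated replicate 2 (0.77). Under normexp it was 0.40 and with every probe of the gene -0.10, neither of which was called. CCL22 (0.01, adjusted p = 0.976) and CCL25 (-0.13, adjusted p = 0.607) did not pass, although probes within CCL25 reached changes of 7.09 at -2541 bp and -4.88 at -405 bp and the narrower window gave CCL25 a called fall (-0.77).

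Of CCL19, CCL21, CXCL12, CXCL13 and CXCL14, grouped here as homeostatic chemokines, 4 of 5 were tested, 0 rose and 1 fell. CXCL12 (SDF-1), the ligand of CXCR4 that retains haematopoietic cells in marrow and is made by lung stroma and epithelium, had the highest log2 ratio of the 28 genes at the basal level. It was 1.12 and 1.02 in the unstimulated and 1.24 and 0.94 in the stimulated replicates, over 12 measured probes. The replicates of the conditions overlapped, and the change was 0.02 ± 0.19 (adjusted p = 0.94). Around the start, the probes at -111, 18 and 135 bp had ratios between 2.14 and 3.42 in all 4 replicates, and none of them passed for a change. Upstream, the probe at -1174 bp rose by 1.94 and the probe at -1849 bp fell by 1.42. CXCL14, an epithelial chemokine without ELR motif, had 0.59 and 0.95 before and 0.32 and -0.07 after stimulation, a change of -0.65 ± 0.22 (adjusted p = 0.0309). It was not called in 8 of 15 alternatives. These included the fits without unstimulated replicate 2 (-0.47) and without stimulated replicate 2 (-0.45). They also included dim probes added (-0.39), every probe of the gene (-0.22) and the median of the probes. In the narrower window the change of CXCL14 was -1.68. CCL19 (0.15, adjusted p = 0.53) and CCL21 (-0.03, adjusted p = 0.909), the lymph node ligands of CCR7, did not pass. The sign of CCL19 depended on the probes used, with called values of -0.64 in the narrower window and 0.77 for the median of the probes, and CCL21 had a called 0.93 in the narrower window.

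The transmembrane chemokines, which are shed from the cell surface, were both tested, and 1 fell. CXCL16 had log2 ratios of 0.42 and 0.55 before and -0.16 and 0.04 after stimulation, a change of -0.54 ± 0.19 (adjusted p = 0.0339) that was not called without unstimulated replicate 1 (-0.61), unstimulated replicate 2 (-0.48) or stimulated replicate 1 (-0.44), nor under normexp (-0.55) or with every probe of the gene (-0.04). CX3CL1 (fractalkine) had -1.02, -1.11, -1.41 and -1.27 in the same order and did not pass (-0.27 ± 0.18, adjusted p = 0.228). It was called as a fall in the narrower window (-2.12), with dim probes included or probes above background in at least 1 channel (-0.89 each) and with the median of the probes (-0.71). Its mean hid contrasts between probes: the one at -31 bp lay above the array median in all replicates (3.0, 2.79, 2.36 and 2.65), the one at 209 bp fell by 4.67 and the one at -1325 bp rose by 4.07.

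Each ratio has a SMAD3 IP and a mock IP behind it, and the channels were tested separately on the same probes, with each channel centred on the median of the measured probes. At the chemokine promoters the SMAD3 channel rose in 5 and fell in 6 of 28 genes (all genes, 18.7% and 12.4%), and the mock channel rose in 8 and fell in 8 (all genes, 26.7% and 22.1%). The changes of the ratio often lay in the control, although under normexp the mock channel had 0 rises and 1 fall and the SMAD3 channel 0 of either. The shares of all genes under normexp are not given here. Of the 7 genes whose ratio rose, the mock channel fell in 5 and the SMAD3 channel rose in 2, CCL24 and CCL23. Of the 12 genes whose ratio fell, the mock channel rose in 7 and the SMAD3 channel fell in 2, CCL1 and CCL17. The same held for the array as a whole, since the mock channel moved against the ratio in 65.3% of all rising and 57.8% of all falling genes, and the SMAD3 channel with it in 34.6% and 21.4%.

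CXCL6 was the clearest case. Its SMAD3 signal fell after stimulation, with a change of -1.28 ± 0.17 on the log2 scale (adjusted p = 0.00778), and its mock signal fell further, with a change of -6.28 ± 0.25 (adjusted p = 9.04e-05). The mock signals at its probe 43 bp from the start were 7.38 and 6.68 at the basal level and -0.49 and -0.47 after stimulation. In CCL24 both channels moved, with 1.52 ± 0.13 in the SMAD3 channel (adjusted p = 0.00295) and -1.34 ± 0.17 in the mock channel (adjusted p = 0.00226). At its probe at -119 bp the SMAD3 signal was -0.07 and 0.51 before and 6.10 and 5.87 after stimulation, and the mock signal 3.16 and 2.93 before and 0.06 and -0.18 after. CCL23 resembled it, with 1.64 ± 0.14 and -1.01 ± 0.19. In CCL1 the SMAD3 channel changed by -2.35 ± 0.15 (adjusted p = 0.00132) and the mock channel by 1.86 ± 0.16 (adjusted p = 0.000608).

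In CCL16 the mock channel rose by 1.86 ± 0.20 (adjusted p = 0.00137) and the SMAD3 channel had -0.12 ± 0.23 (adjusted p = 0.728). CCL2 was alike, with 1.33 ± 0.15 in the mock channel (adjusted p = 0.0017) and 0.59 ± 0.29 in the SMAD3 channel (adjusted p = 0.172). CCL14 had a rise in both channels, of 2.07 ± 0.51 in the SMAD3 channel (adjusted p = 0.0375) and 2.71 ± 0.20 in the mock channel (adjusted p = 0.000381), and in CXCL12 the SMAD3 channel rose (0.55 ± 0.14, adjusted p = 0.0406) while the mock channel had 0.33 ± 0.13 (adjusted p = 0.0994). The counts for the SMAD3 channel were unstable, with 0 to 3 rises and 1 to 6 falls when 1 replicate was left out. The lowest counts came without stimulated replicate 2, which left 0 rises and 1 fall, and without stimulated replicate 1, which left 2 rises and 1 fall. Without unstimulated replicate 1 or 2 there were 3 and 2 rises. The mock channel had 4 rises and 5 falls without stimulated replicate 1.

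**Figure D3:**
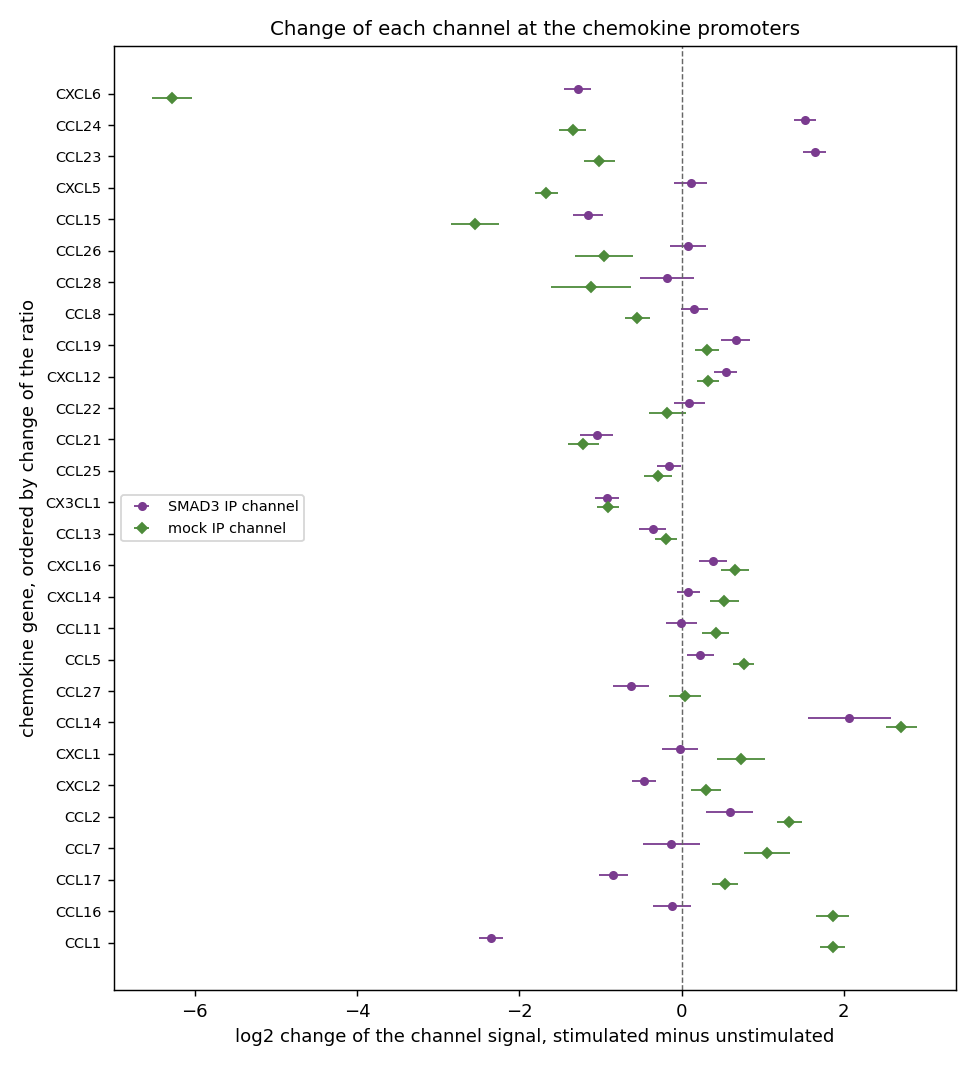
Log2 change of the SMAD3 IP channel (circles) and of the mock IP channel (diamonds) after stimulation for the 28 tested chemokine genes (x axis, stimulated minus unstimulated, bars are 1 SE of the limma fit), ordered by the change of their ratio. In CXCL6 the mock channel lies at -6.28 and the SMAD3 channel at -1.28, and in CCL24 and CCL23 the channels lie on opposite sides of 0.

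Within each condition the SMAD3 IP was also set against the mock IP, that is, against the array median. At the basal level the ratio was above it at 5 of 28 chemokine genes (all genes, 34.6%) and below it at 17 (all genes, 35.9%). After stimulation it was above at 3 (all genes, 28.1%) and below at 19 (all genes, 43%). The promoters above the median at the basal level were CXCL12 (1.07), CXCL14 (0.77), CXCL2 (0.54), CXCL16 (0.48) and CCL27 (0.34), and after stimulation CCL24 (1.38), CXCL12 (1.09) and CXCL5 (0.58). CXCL12 was the one gene above it in both. At the basal level 3 genes were above it without unstimulated replicate 1 and 3 without unstimulated replicate 2. The lowest basal ratios were those of CXCL6 (-5.40), CCL23 (-2.98), CCL26 (-1.79) and CCL25 (-1.76), and the lowest stimulated ones those of CCL1 (-4.21), CCL16 (-3.03), CCL14 (-2.40) and CCL2 (-2.35). The median ratio was -0.72 for the chemokine genes and -0.02 for all genes at the basal level, and -0.67 and -0.18 after stimulation. The split moved with the scaling: at the basal level 10 were above and 10 below under loess, 9 and 12 without centring and 0 and 3 under normexp. After stimulation 9 were above and 12 below under loess, 8 and 13 without centring and 3 and 6 under normexp. The medians of all genes moved as well. At the basal level the median was -0.07 for the chemokine genes and 0.52 for all genes under loess. It was -0.15 and 0.44 without centring and -0.06 and 0.17 under normexp. After stimulation these medians were 0.06 and 0.51 under loess, -0.06 and 0.43 without centring and -0.03 and 0.18 under normexp.

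Probes with a signal in a single channel have no ratio and are given as counts. At the basal level 43 of 1011 member probes (4.25%) were well above background in both replicates of the mock channel and in neither of the SMAD3 channel, compared with 2.97% of all probes, and 3 (0.297%, all probes 0.673%) showed the opposite. After stimulation these counts were 34 (3.36%, all probes 3.44%) and 7 (0.692%, all probes 0.697%).

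At single probes, 71 of 268 measured chemokine probes rose (all measured probes, 23.2%) and 79 fell (30.7%). The largest rises were those of CCL24 at -119 bp (8.67), CCL25 at -2541 bp (7.09), CCL17 at 11621 bp (7.08), CCL8 at -3427 bp (5.88) and CCL23 at -1397 bp (5.78). The largest falls were those of CCL24 at -2037 bp (-5.97), CCL19 at 1663 bp (-4.97), CCL25 at -405 bp (-4.88), CCL16 at -68 bp (-4.79) and CCL1 at 149 bp (-4.78). CCL24 and CCL25 held a probe in each of these groups. Of 175 pairs of neighbouring measured chemokine probes at most 700 bp apart, the longest fragment the study describes after sonication, both probes were called in 59, in the same direction in 40 (67.8%) and in opposite directions in 19 (32.2%). Over all genes these shares were 61% and 39%. Replicates disagreed at some probes, as at -2245 bp of CCL24, which had 0.88 and 7.07 in the unstimulated replicates and was not called. Under the normexp method 12 chemokine probes rose and 15 fell, and the shares of all measured probes under it are not given here.

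**Figure D4:**
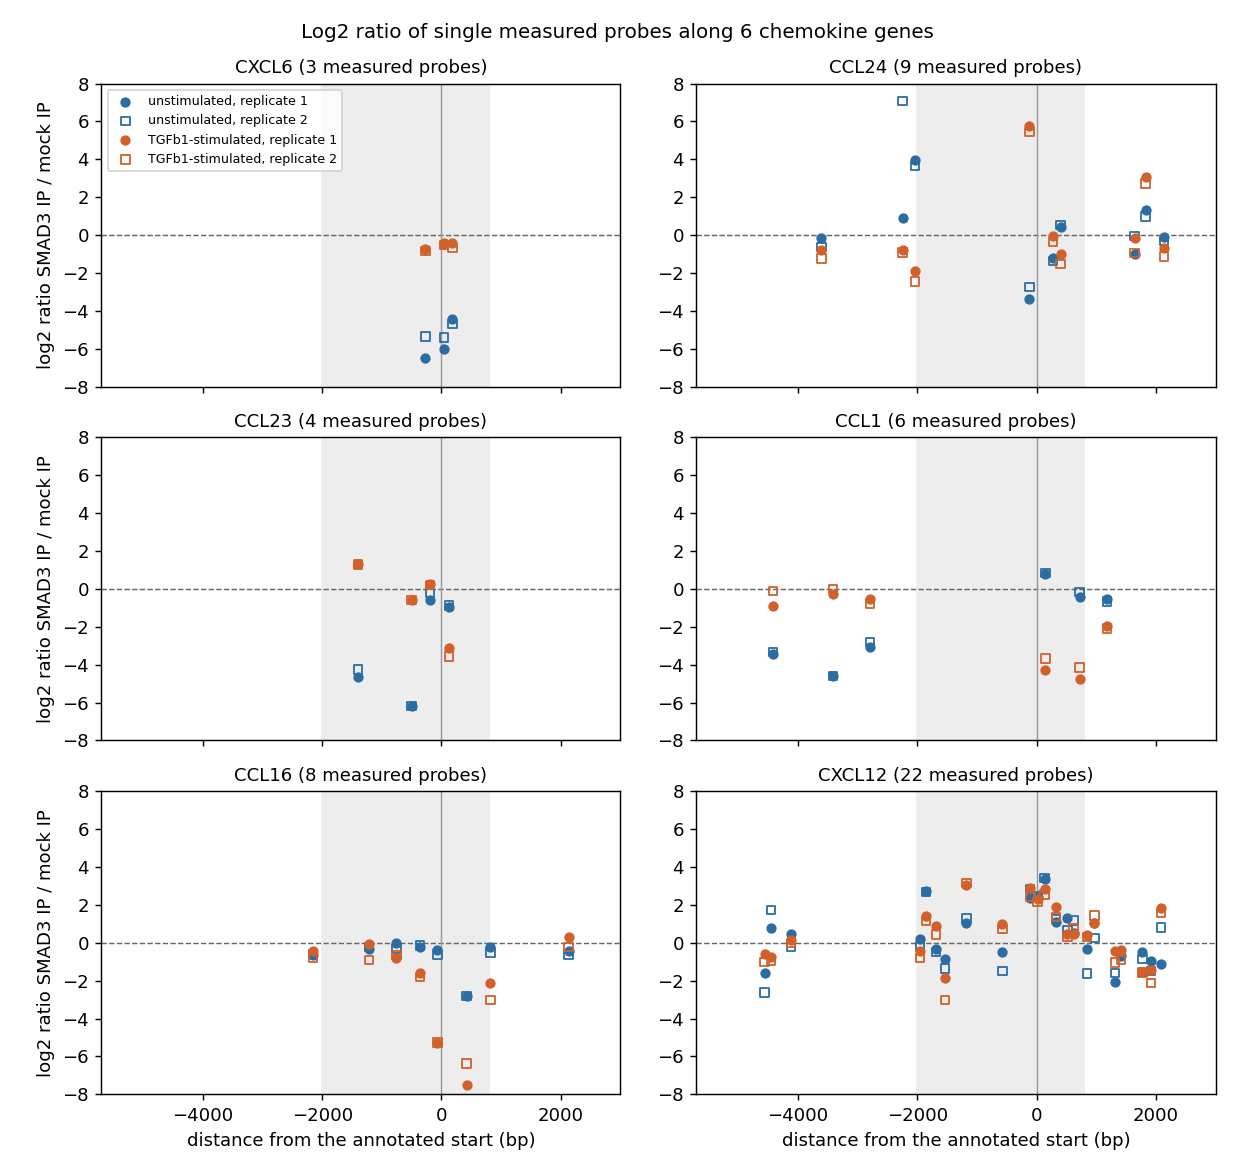
Log2 ratio of SMAD3 over mock IP at single measured probes (y axis) by distance from the annotated start in bp (x axis) for CXCL6, CCL24, CCL23, CCL1, CCL16 and CXCL12, with 1 point per replicate, blue for unstimulated and orange for stimulated cells and the promoter window shaded. All 3 probes of CXCL6 rise, those of CCL24 go both ways with 5.75 and 5.46 at -119 bp after stimulation, and CXCL12 stays above 2 around its start in both conditions.

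Fragments of the length described would be read by several neighbouring probes, so runs of probes were also counted. An enriched stretch was at least 2 neighbouring measured probes, at most 700 bp apart, each with a centred ratio above 1.5-fold in both replicates. At the basal level 6 of 29 chemokine genes with such neighbours held one (all genes, 40.6%), namely CXCL12, CCL24, CXCL16, CCL27, CXCL9 and CCL17. After stimulation 3 did (all genes, 37.4%), namely CXCL12, CCL25 and CXCL14. The same rule on sign-reversed centred ratios, that is, more than 1.5-fold below the array median, found 16 genes at the basal level (all genes, 49.5%). After stimulation it found 18 (54.4%). On this scale genes with reversed stretches were more numerous than genes with enriched ones. The array medians were 0.24 to 0.72 before centring, so both counts depend on the centring. A reversed stretch need not hold more mock than SMAD3 signal.

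CXCL12 had the enriched stretches with the most probes and was the one gene with an enriched stretch in both conditions. They comprised 5 probes from -111 to 519 bp with a mean of 2.12 on the log2 scale at the basal level and 6 probes from -1174 to 323 bp with a mean of 2.20 after stimulation. In CCL24 the probes at -2245 and -2037 bp made an enriched stretch at the basal level, with a mean of 3.89, and a reversed one after stimulation. CCL25 did the opposite, since its probes at -2541 and -2352 bp were enriched after stimulation, with a mean of 2.55, and reversed at the basal level. In the basal stretch of CCL24 the replicates disagreed at -2245 bp, with 0.88 and 7.07, so its mean leans on unstimulated replicate 2. CXCL16 had a basal stretch from 282 to 405 bp (2.31), CCL27 from -562 to -417 bp (2.07) and CCL17 from 8002 to 8556 bp (1.00), and CXCL14 a stimulated one from 304 to 420 bp (1.44). CXCL9, which had no measured probe in the window, had a basal stretch from -3743 to -3591 bp (3.08). At its probe at -3743 bp the ratio was 5.54 and 5.18 before and 5.73 and 5.51 after stimulation, and it was the probe at -3591 bp that fell, by 1.42, below the threshold. CXCL12 was the gene left when 3 neighbouring probes were required, in both conditions.

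The receptors and the NF-kB pathway, which drives many chemokine genes, were described beside the ligands. Of 21 chemokine receptor genes on the array 11 were tested, 1 rose and 4 fell. CXCR4, the receptor of CXCL12, had log2 ratios of 0.84 and 0.70 before and -0.10 and -0.41 after stimulation, a change of -1.02 ± 0.19 (adjusted p = 0.00191). CXCR7, the scavenger receptor of CXCL12, had -0.94 ± 0.20 (adjusted p = 0.00308), CCR6, the receptor of CCL20, had -0.93 (adjusted p = 0.0066) and CCR1, a receptor of CCL5, CCL15 and CCL23, had -0.63 (adjusted p = 0.0215). CCR9, the receptor of CCL25, had 0.81 (adjusted p = 0.00621). Of the remaining chemokines of these families 2 were tested, and PF4V1, a platelet factor 4 variant, had 1.40 (adjusted p = 0.000341). All 11 NF-kB pathway genes were tested, 0 rose and 5 fell. RELA, the p65 subunit, had 1.53 and 1.64 before and -0.42 and -0.10 after stimulation, a change of -1.84 ± 0.19 (adjusted p = 6.08e-05), and the kinase gene IKBKB had -1.48 (adjusted p = 0.000144). IKBKG (-0.88), RELB (-0.80) and NFKBIA (-0.51) also fell. These counts of rises and falls are to be read beside the 21.3% and 34% of all tested genes.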

How the data were processed

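DNA from SMAD3 IP and mock IP had been amplified by the authors in a ligation-mediated PCR of 2 stages and hybridised to 8 Agilent arrays. For each spot the authors deposited the intensity of both channels from Agilent Feature Extraction 9.5.1.1 (version per the submitters' processing notes), background-subtracted and scaled per dye, with surrogate values for dim signals, and a series table with the log2 ratio of the processed channels. The deposited log2 ratio matched that of the intensities to within 3.13e-06. The files name no genome build, so positions on the array are distances from the annotated start. Control spots and 1404 outlier probes were left out. Both channels were well above background at 38.7% to 51.5% of the probes of an array, and surrogates replaced 39.1% to 53.0% of mock and 45.5% to 58.3% of SMAD3 signals. The number of arrays and these shares limit the precision.

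Log2 ratios of processed signals were centred on the median of each array (0.24 to 0.72 before). Gene means over measured probes were fitted across all genes with limma 3.58.1 (lmFit, eBayes, Benjamini-Hochberg at 0.05), likewise single probes and single channels. SEs are those of the fit. R 4.3.3 with data.table (version 1.17.8) and Python 3.11.15 with numpy 2.4.6, pandas 2.3.3 and matplotlib 3.10.9 were used, and the tests were checked on simulated data. Groups and replicate numbers follow the sample labels. Alternatives were normexp (offset 50), loess, uncentred ratios, quantile scaling of the channels, other probe filters, windows, probe summaries and stretch thresholds, single slides, a replicate block and leaving out replicates. Promoter sequences from RefSeq matched 72.5% of the genes, so a check of GC content was void. Members and gene lists were chosen with earlier results of these data known. The genes named are at most 6 rises and 6 falls past the threshold, the 4 highest and 4 lowest ratios, members with enriched stretches, chemokines known from airway epithelium and CCL14, and the probes named are the 5 largest rises and falls. Other members, their remaining probes and pathway genes in the text were added after their values were seen.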

Additional observations from a re-analysis of the deposited data

How the results depend on the processing

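The promoter change of the 28 chemokine genes, 7 rises and 12 falls, became 3 and 2 under normexp, 4 rises (and 11 falls) in the window of 500 bp upstream to 250 bp downstream, and 1 and 4 with at least 4 measured probes, where 16 and 11 genes were tested. The basal ratio, 5 genes above and 17 below the array median, became 0 and 3 under normexp, 10 and 10 under loess, and 9 above without centring. It had 3 above with all probes and 3 with at least 1 channel well above background, 7 below in the narrow window and 7 below with at least 4 probes. The stimulated ratio, 3 above and 19 below, became 6 below under normexp, 9 and 12 under loess, 8 above without centring, 1 above with all probes, 11 below in the narrow window, 1 above with the median of the probes, and 1 and 7 with at least 4 probes. Probe rises, 71, became 12 under normexp and 115 with all probes, and falls, 79, became 15 under normexp. The channels gave 0 rises and 0 falls for SMAD3 and 0 and 1 for mock under normexp. Enriched stretches, 6 and 3, became 2 at the basal level above a 2-fold ratio, 1 and 1 with at least 3 neighbours, 1 at the basal level under normexp, and 5 after stimulation under loess. The shares of all genes and probes called under these settings are not given, so shifts of the counts are not results about the chemokine genes.

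Among genes called before or after the change of setting, signs turned with all probes for CCL11 (1.24), CCL14 (0.88), CCL19 (-0.50), CCL7 (1.42) and CXCL2 (0.83), with at least 1 channel above background for CCL7 (2.43) and CXCL2 (0.38), with every probe of the gene for CCL17 (0.44), CCL19 (-0.76), CCL24 (-0.27), CCL28 (-0.10) and CCL5 (0.19), in the narrow window for CCL19 (-0.64) and CCL21 (0.93), and with the median of the probes for CXCL5 (-0.51). The causes were not tested. CXCL6 kept its call in all 14 alternatives that gave it a value, with changes of 2.73 to 5.20.

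Leaving out 1 replicate gave 5 to 6 rises and 11 falls of the promoter change, 3 to 4 basal ratios above and 16 to 18 below, 2 to 3 stimulated ratios above and 15 to 19 below, 48 to 63 probe rises and 60 to 69 falls, 0 to 3 SMAD3 rises and 1 to 6 falls, 4 to 9 mock rises and 5 to 9 falls, and 7 basal and 3 stimulated stretches. With 1 replicate left, that replicate is assumed to vary like the other condition. The labels number the replicates alike in both conditions. Deviations of same-numbered replicates correlated at 0.052 over all measured probes. With 2 replicates per condition this cannot decide whether same-numbered replicates shared a preparation. With the replicate block 7 genes rose and 13 fell, CCL14 being added, and the SMAD3 channel had 3 rises. Centring within GC bins and leaving out probes that share sequence were not run, since they need probe sequences, which were not used here. Dim signal also limits the values, since 26.5% of the member probes were measured.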
